A study of Mus musculus with 5 samples.

Results

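Keratins and keratin-associated proteins were examined in whole-tumour RNA from subcutaneous B16.F10 melanomas. The 97 genes are those with a symbol made of Krt and digits (47 keratins) or starting with Krtap (50 keratin-associated proteins), of 19505 named genes on the array. The members were chosen by symbol, but the family itself was selected on the difference of 1 gene, Krtap11-1, between the same treatment groups, so the values of that contrast are given for all members as a description. The host mice were wildtype C57BL/6 animals of 10 weeks, and the B16.F10 line they carried, a transplantable mouse melanoma, was marked with luciferase and GFP. Anti-PD-1, which blocks a brake on T cells, was injected into every mouse on days 1, 4 and 8 after the tumour cells. The control group (2 mice) was also dosed orally with corn oil containing 5% DMSO, called vehicle here, and the treated group (3 mice) with RG7112, an inhibitor of the binding of MDM2 to p53. Oral doses were given every 2 days for 6 days, starting 2 days after injection per the labels. Tumours were excised on day 13, and RNA from each was hybridised to 1 Affymetrix Clariom S array. They are numbered as in the labels, vehicle 3 and 4 and RG7112 1, 2 and 3, and per the labels hold tumour cells together with immune cells that entered them.

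Keratins are the intermediate filament proteins of epithelial cells, and each filament is built from a type I and a type II keratin. Basal keratinocytes of the epidermis make Krt5 with Krt14, the layers above them make Krt1 with Krt10, and simple epithelia make Krt8 with Krt18. The hair follicle has its own keratins in the root sheaths and in the hair shaft. Keratin-associated proteins are small proteins, rich in cysteine or in glycine and tyrosine, that fill the space between the keratin filaments of the hair shaft and are made late in its differentiation. Melanocytes are not epithelial cells and build their filaments mainly from vimentin.

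The deposited values are log2 signals after RMA, with array medians from 5.76 to 5.81. As these values carry no detection call, the level of 1454 probes for olfactory, vomeronasal, trace amine and taste receptors, genes used mainly by sensory cells, served as a noise floor. The floor of an array was the 95th percentile of these probes, which was 4.69 and 4.61 in vehicle tumours 3 and 4 and 4.47, 4.57 and 4.48 in RG7112 tumours 1, 2 and 3. Probes differ in affinity, so a position against the floor is not an amount of RNA, and probes of related genes can share signal. Of 15 melanocyte lineage genes 14 were above the floor in all 5 tumours, with list means from 10.4 to 10.6 and Dct and Tyrp1 at about 13.0 in both groups, and 13 leukocyte genes had means of 6.39 and 6.15 with vehicle and from 7.46 to 7.69 with RG7112. Among the leukocyte genes, H2-Ab1 and H2-Aa of MHC class II rose by 1.80 ± 0.17 and 1.98 ± 0.18 (adjusted p = 0.000494 and 0.000356 in limma). RG7112 tumour 1 had the widest distribution, with a lower quartile of 4.02 against 4.07 to 4.13 in the other tumours.

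Most keratin genes were not above the noise floor. Of the 97 members, 29 (29.9%) exceeded it in all 5 tumours, 15 in 1 to 4 tumours and 53 in none. Over all 22203 probes, 61.5% exceeded it in all 5 tumours, and of the sensory receptor probes themselves 2.68% did. The 29 comprised 11 of 47 keratins and 18 of 50 keratin-associated proteins. Setting the floor at the 99th percentile of the receptor probes left 15 members above it.

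In the basal epidermal pair, the type I keratin exceeded the noise floor and the type II keratin did not. Krt14, the type I keratin of basal keratinocytes, was above the floor in every tumour. It had signals of 5.81 and 6.08 with vehicle and 4.90, 5.72 and 5.42 with RG7112. All 3 RG7112 tumours lay below both vehicle tumours, with RG7112 tumour 1 lowest, and the difference was -0.60 ± 0.23 (SE). Krt5, its type II partner, was at 4.57 and 4.15 with vehicle and 4.16, 3.95 and 4.29 with RG7112, below the floor in all 5 tumours, and the groups overlapped. Krt15, a type I keratin of basal cells and of follicle stem cells, was above the floor in all 5, at 5.09 and 4.91 against 4.62, 5.41 and 5.46, and also overlapped. Krt17, a keratin of skin appendages and wounded epidermis, was below the floor throughout, with means of 3.66 ± 0.27 (SD, n = 2) and 3.44 ± 0.07 (SD, n = 3).

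The suprabasal pair showed the same split. Krt10, the type I keratin of the spinous layer, was a little above the floor, at 5.03 and 4.77 with vehicle and 4.78, 4.78 and 4.92 with RG7112, and the groups overlapped. Krt1, its type II partner, was below the floor in every tumour, at 3.84 and 4.32 against 3.59, 3.77 and 3.76. Of the 13 keratins of suprabasal and region-specific epithelia, 3 exceeded the floor in all 5 tumours and 9 in none. The 3 were Krt10, the corneal keratin Krt12 (5.98 ± 0.10 with vehicle, 5.60 ± 0.40 with RG7112) and Krt80 (6.28 ± 0.08 and 6.33 ± 0.06). Krt80 differed by 0.04 ± 0.15, and its groups overlapped. Krt42, a type I keratin outside these classes, was above the floor throughout and differed by 0.10 ± 0.16.

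None of the 6 simple epithelial keratins was above the floor in all 5 tumours. Krt8, the type II keratin of simple epithelia, was at 4.30 and 4.80 with vehicle and 3.94, 4.35 and 4.64 with RG7112, above the floor in vehicle tumour 4 and RG7112 tumour 3. Krt18, its type I partner, was at 4.25 and 4.20 against 3.91, 4.00 and 4.43, below the floor in all. Krt7, a keratin of glandular and ductal epithelia, exceeded the floor in 4 tumours and differed by -0.28 ± 0.25, and Krt19, found in many simple epithelia, differed by 0.05 ± 0.17 and was below the floor. In all 6 the groups overlapped.

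**Figure D1:**
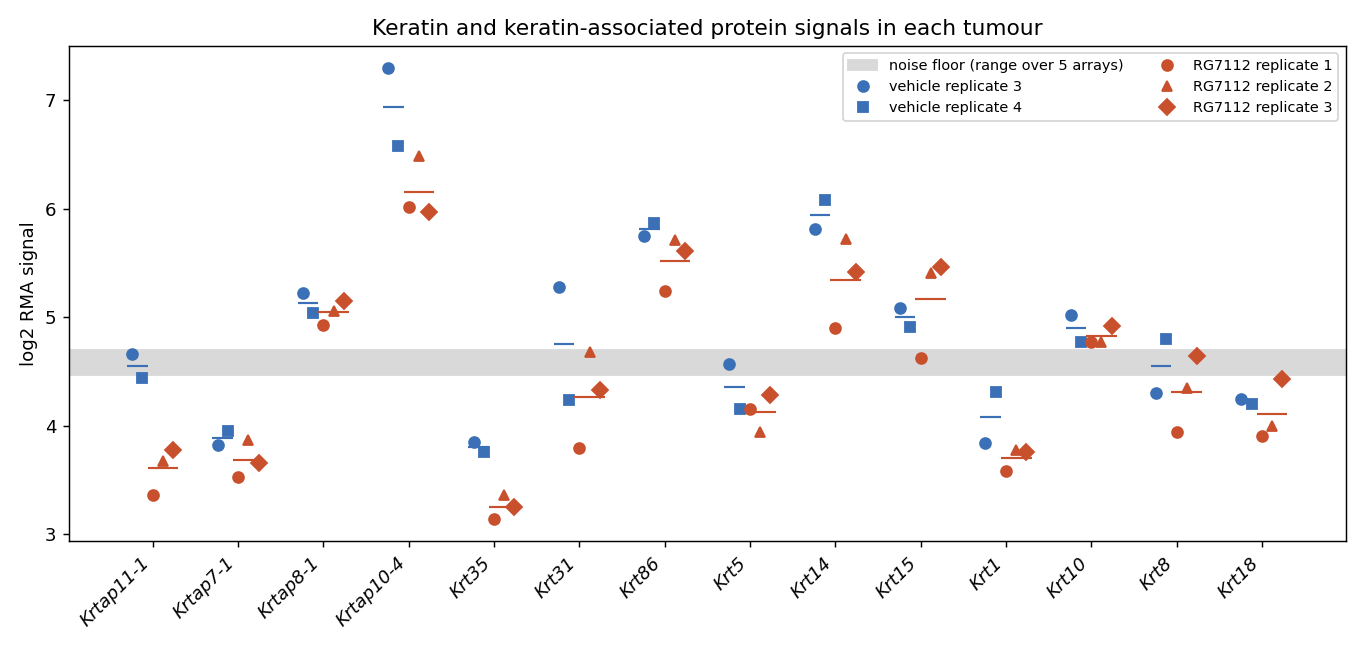
Signals of 14 keratin and keratin-associated protein genes (log2 RMA, vertical axis) in each of 2 vehicle tumours (blue) and 3 RG7112 tumours (orange), with short lines at the group means and a grey band over the range of the noise floor, from 4.47 to 4.69. Krtap11-1 lies in or just under the band with vehicle and well below it with RG7112, while Krt5, Krt1 and Krt18 lie at or below the band in both groups.

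Hair follicle keratins were dim as well, and those of the hair shaft were mostly lower with RG7112. Of 9 root sheath keratins 1, Krt73 of the inner root sheath, was above the floor in all 5 tumours, at 5.69 and 5.47 with vehicle and 4.90, 5.37 and 5.27 with RG7112. Its RG7112 values were all below the vehicle values. Krt71 and Krt25, a type II and a type I keratin of the inner root sheath, were below the floor in every tumour and differed by -0.19 ± 0.17 and -0.21 ± 0.17. Krt27, another type I keratin of that sheath, was above the floor in 2 tumours and differed by -0.12 ± 0.22. Of 10 hair shaft keratins 2 were above the floor in all 5 tumours and 4 in none. The median difference of these 10 was -0.27, 9 were lower, and in 6 all RG7112 tumours lay below both vehicle tumours. The same counts over all 22203 probes were 55.2% lower and 14.0% with all RG7112 tumours below both vehicle tumours. Over all 97 members they were 75.3% and 26.8%, and over the sensory receptor probes 64.2% and 17.1%.

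Within the hair shaft group the individual genes differed. Krt35, a type I keratin of the hair matrix and cortex, was at 3.85 and 3.76 with vehicle and 3.14, 3.36 and 3.25 with RG7112, groups that did not overlap but lay wholly below the floor. Its difference was -0.55 ± 0.16. Krt86, a type II hair keratin above the floor throughout, was at 5.75 and 5.87 against 5.24, 5.71 and 5.61. Krt31, a type I keratin of the hair cortex, was at 5.28 and 4.24 with vehicle and 3.80, 4.68 and 4.33 with RG7112. It was highest in vehicle tumour 3 and above the floor there and in RG7112 tumour 2. Its difference of -0.49 ± 0.31 became 0.03 without vehicle tumour 3. Krt39 had the largest positive difference of all members, 0.33 ± 0.18, at 4.36 and 4.00 against 4.71, 4.46 and 4.36, and the groups overlapped. Krt40, above the floor throughout, was at 4.98 and 5.17 against 4.95, 4.89 and 4.95, so that all RG7112 tumours lay below both vehicle tumours, and differed by -0.15 ± 0.15. Krt33a and Krt33b, hair keratins whose symbols end in a letter and which are not counted among the 97, had signals of 5.45 and 5.13 against 4.98 to 5.39, and of 4.82 and 5.05 against 4.38 to 4.64.

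Keratin-associated proteins were measured through 50 genes in 4 gene clusters, taken from the RefSeq gene table of GRCm38.p6. On chromosome 11, 11 of 20 exceeded the floor in all 5 tumours, on chromosome 7, 2 of 5, on chromosome 10, 1 of 2 and on chromosome 16, 4 of 23. The members above the floor included Krtap17-1 (8.28 and 8.14 with vehicle, 7.53, 8.17 and 8.23 with RG7112), Krtap4-8 (8.08 and 7.92 against 7.55, 7.93 and 7.43) and Krtap5-1 (8.05 and 8.04 against 7.64, 7.91 and 7.41). The first of these 3 overlapped between the groups, Krtap4-8 overlapped narrowly, and Krtap5-1 was lower in all 3 RG7112 tumours. Krtap3-2 and Krtap3-3 had identical values on every array, so the 97 members gave 96 distinct measurements. The other members of these families also have close paralogs, and how far their probes separate them was not tested. Krtap10-4, on chromosome 10, had the second largest negative difference, -0.78 ± 0.23. It was above the floor throughout, at 7.29 and 6.58 with vehicle and 6.02, 6.48 and 5.97 with RG7112, so that RG7112 tumour 2 lay just below vehicle tumour 4. Krtap12-1, also on chromosome 10 and below the floor throughout, differed by 0.07 ± 0.15. Krtap5-4, on chromosome 7 and above the floor throughout, differed by -0.25 ± 0.20, and its groups overlapped. Krtap1-3, on chromosome 11 and below the floor in all 5, had the second largest positive difference, 0.25 ± 0.20, at 3.95 and 3.47 against 4.15, 4.08 and 3.67, and its groups overlapped.

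Krtap11-1, a cysteine-rich keratin-associated protein of the hair cortex, had the largest negative difference of the 97 members. Its signals (probe TC1600002037.mm.2) were 4.66 and 4.44 in vehicle tumours 3 and 4 and 3.37, 3.67 and 3.78 in RG7112 tumours 1, 2 and 3. The groups did not overlap, and the gap between the lowest vehicle and the highest RG7112 tumour was 0.66. The means were 4.55 ± 0.16 (SD, n = 2) and 3.61 ± 0.22 (SD, n = 3), a difference of -0.94 ± 0.18 (SE), or a 1.92-fold lower signal with RG7112. Since the probe was below the noise floor in every tumour, this is a ratio of signals that include background, not of RNA amounts. The gene was called lower in limma over all probes, but the call was lost without vehicle tumour 3 (-0.83), vehicle tumour 4 (-1.06), RG7112 tumour 1 (-0.82) or RG7112 tumour 2 (-0.98), and only kept without RG7112 tumour 3 (-1.03). The difference was thus of like size whichever tumour was left out. In bulk tumour RNA, fewer cells of a type and less RNA per cell cannot be told apart.

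Against the noise floor, Krtap11-1 was below the 95th percentile of the sensory receptor probes in all 5 tumours, the vehicle tumours included. It stood above 94.6% and 93.3% of the receptor probes in vehicle tumours 3 and 4, and above 43.3%, 69.6% and 77.1% of them in RG7112 tumours 1, 2 and 3. In the vehicle tumours its signal was therefore just under the floor, and in the RG7112 tumours it was within the bulk of the receptor probes. On the low side, the difference itself lay beyond those of the other probes at this level. Rises among probes of like level were not counted. The differences of the 1454 receptor probes ran from -0.71 to 0.73, and 0 of them were as low as that of Krtap11-1. Of 4834 probes with a mean signal within 0.5 of that of Krtap11-1, no other was as low (the next was -0.89), and of all 22203 probes 1 other was. Krtap11-1 was picked for this difference, so these ranks describe it and test nothing.

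**Figure D2:**
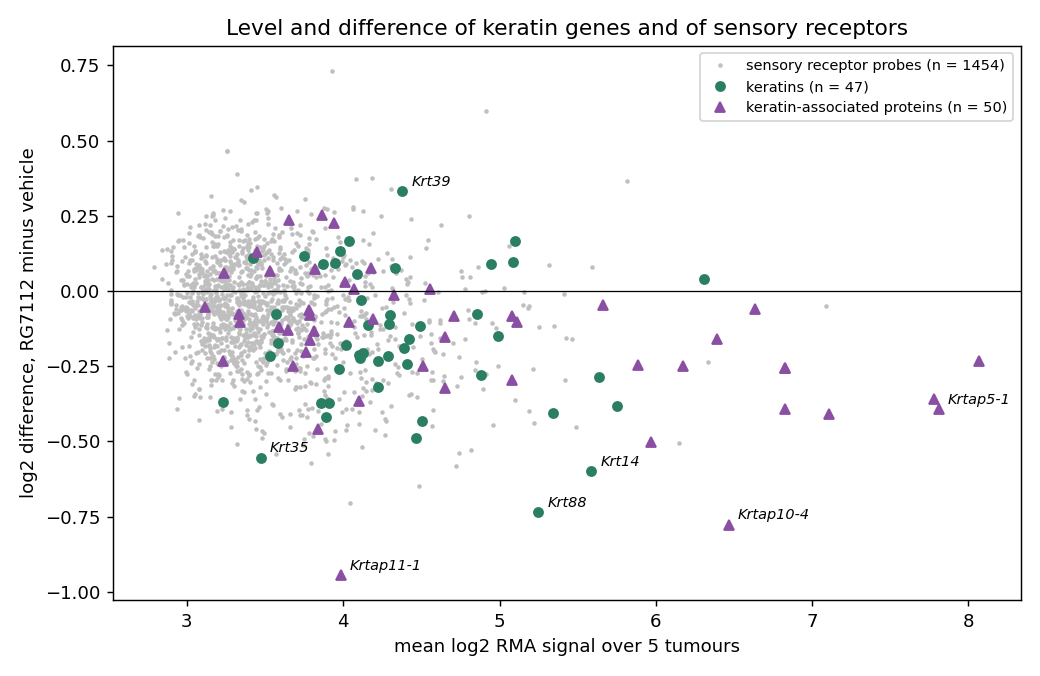
Difference between RG7112 and vehicle tumours (log2, vertical axis) against the mean log2 signal over 5 tumours (horizontal axis) for 47 keratins (green circles), 50 keratin-associated proteins (purple triangles) and 1454 sensory receptor probes (grey). Krtap11-1 lies below every receptor probe at a mean signal of 3.98, while most other members at that level lie among the receptor probes.

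The genes around Krtap11-1 had smaller differences. It is the last of the 23 measured Krtap genes of its cluster on chromosome 16, and the nearest on that side, Krtap7-1, was at 3.82 and 3.95 with vehicle and 3.53, 3.87 and 3.66 with RG7112. Krtap7-1 overlapped between groups and differed by -0.20 ± 0.17. The next genes, Krtap8-1, above the floor in all 5 tumours, and Krtap6-2, below it in all 5, differed by -0.08 ± 0.16 and -0.12 ± 0.18. Elsewhere in the cluster Krtap16-3 and Krtap19-3, above the floor in all 5 tumours, differed by -0.16 ± 0.17 and -0.06 ± 0.17. On the other side Tiam1, Sod1 and Scaf4, which are no keratin genes, differed by 0.26, -0.19 and 0.24, and in each the groups overlapped. The 23 genes of the cluster had a median difference of -0.08, 17 of them were lower (73.9%, against 55.2% of all probes), and 4 had all RG7112 tumours below both vehicle tumours (17.4%, against 14.0% of all probes). In 2 of the 23, against 10.8% of all probes, all RG7112 tumours were higher, at signals below the floor. They were Krtap13-1 (3.51 and 3.52 against 3.78, 3.94 and 3.53) and Krtap21-1 (3.92 and 3.70 against 3.97, 4.02 and 4.12). The difference between Krtap11-1 and its neighbours was not tested.

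**Figure D3:**
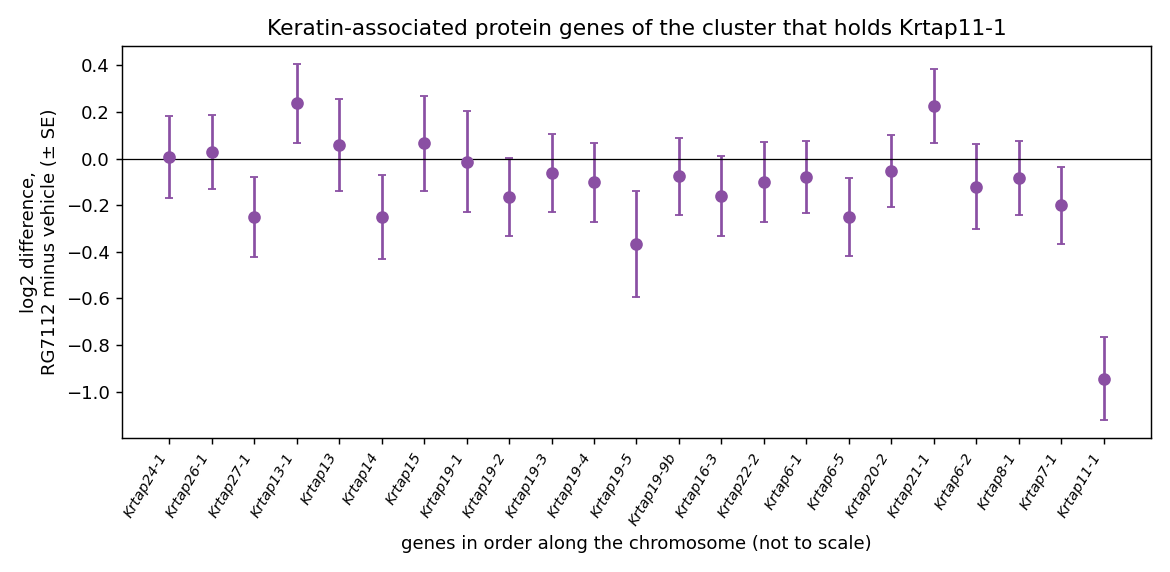
Difference between RG7112 and vehicle tumours (log2, points, with SE from limma as bars) for the 23 measured keratin-associated protein genes on chromosome 16, in gene order. Krtap11-1, at the end of the cluster, lies at -0.94, and the other 22 lie between -0.37 and 0.24.

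Over the whole family, differences were small and mostly negative. In the limma fit over all probes, 1 of 97 members (Krtap11-1) was called lower at an adjusted p under 0.05, where 0.0315% of all 22203 probes were, and 0 were called higher, where 1.42% of all probes were. At an unadjusted p under 0.05, 10 members were lower and 0 higher, against 4.06% and 4.83% of all probes. Of the 1454 receptor probes, 58 were lower and 7 higher at this threshold. Among the 10 were Krt88 (5.84 and 5.55 with vehicle, 4.75, 5.17 and 4.95 with RG7112), Krt36, a hair shaft keratin, and Krtap10-4. In all, 73 of 97 members (75.3%) were lower with RG7112, with a median difference of -0.15, which was -0.09 after quantile and -0.07 after cyclic loess normalization of the deposited values. As deposited, the same figures were 55.2% and -0.03 over all probes and 64.2% and -0.06 over the receptor probes. All RG7112 tumours lay below both vehicle tumours for 26 members (26.8%), and above both for 3 (3.09%), against 14.0% and 10.8% of all probes. For the receptor probes, many of which share the low level of most members, these shares were 17.1% and 5.30%. After quantile or cyclic loess normalization 18 members (18.6%) lay below, against 13.8% and 11.5% of all probes. The receptor shares were then 11.8% and 11.5%. Since Krtap11-1 drew attention to the family in this same contrast, these counts were not tested.

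The lower values were not spread evenly over the RG7112 tumours. RG7112 tumour 1 had the lowest value of the 5 in 41 members, RG7112 tumour 3 in 29 and RG7112 tumour 2 in 10, while vehicle tumours 3 and 4 had it in 6 and 11. Over all probes RG7112 tumour 1 was lowest in 24.9%. Per-tumour means of the 47 keratins were 4.48 and 4.45 with vehicle and 4.17, 4.38 and 4.35 with RG7112, and those of the 50 keratin-associated proteins were 4.91 and 4.80 against 4.63, 4.81 and 4.64. The second set overlapped between groups. Without RG7112 tumour 1, 70 members were lower, with a median difference of -0.12. The 29 members above the floor in all 5 tumours had a median difference of -0.25, with 25 lower (86.2%). These 25 include both Krtap3-2 and Krtap3-3, whose values are identical. The share of lower probes among all probes above the floor was not computed, so the 29 have no background of like level. The 53 members below the floor in all 5 had a median difference of -0.11, with 36 lower (67.9%, near the 64.2% of the receptor probes). The receptor probes were themselves lower on the RG7112 arrays (median -0.06). When each array was centred on its receptor probes, a choice made after the data were seen, the median member differed by -0.09 against 0.03 over all probes, 69 were lower (71.1%, against 43.7% of all probes), and 13 had all RG7112 tumours below both vehicle tumours, against 8.38% of all probes.

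Other markers of skin and hair stood on both sides of the noise floor, and limma called 0 of them, where 0.0315% of all probes were called lower and 1.42% higher. Of 19 genes of keratinocyte adhesion and the basal layer, 7 were above the floor in all 5 tumours and 8 in none. The 8 included Trp63, the transcription factor that defines stratified epithelium, the hemidesmosomal collagen Col17a1 and the desmosomal cadherin Dsg3 of basal cells. Those above it in all 5 were Dst, a linker of filaments to the cell edge (9.04 ± 0.11 with vehicle), the integrin Itga6 (7.74 ± 0.18), Gjb2, Jup, Cdh1, Perp and Pkp1, and other cells also express Dst and Itga6. Of 30 genes of the cornified envelope and granular layer, 4 were above the floor in all 5 and 19 in none. Those above it were Lce1b, a late envelope protein (7.29 and 7.50 with vehicle, 6.76, 7.39 and 7.21 with RG7112), Cdsn and the lipoxygenases Aloxe3 and Alox12b of the skin barrier, and those below it included the envelope protein Ivl. Of 19 genes of the hair follicle, 4 were above it in all 5 and 10 in none. Those above it were Crym, a thyroid hormone-binding protein (6.07 and 6.53 against 5.95, 6.35 and 6.13), the signal Shh (5.81 and 6.07 against 5.82, 5.90 and 5.93), Wnt10b and the deiminase Padi3, and those below it included Tchh, a matrix protein of the inner root sheath, and Foxn1, a transcription factor needed for hair shaft formation. The sebaceous gland list had 6 of 11 genes above it in no tumour, among them Awat1 and Awat2, enzymes of wax ester synthesis. Its genes Fads2 and Scd1, at means of 11.2 and 10.1 in both groups, are enzymes of lipid synthesis that are not limited to the gland. At an unadjusted p under 0.05 in limma, 4 of 19 genes of the keratinocyte adhesion list were lower, as were 1 of 30 of the cornified envelope list, 1 of 19 of the hair follicle list and 1 of 11 of the sebaceous gland list, against 4.06% of all probes. In the other direction, 1 gene of the cornified envelope list, Lce1m, was higher, against 4.83% of all probes.

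The means of these lists shifted little between the groups, while single genes differed more. In the keratinocyte adhesion list Jup differed by -0.67 ± 0.18 and Perp by 0.51 ± 0.25, and 11 of its 19 genes were lower and 8 higher. Mean levels of the keratinocyte adhesion list were 5.11 and 5.13 with vehicle and 4.92, 5.09 and 5.13 with RG7112. For the sebaceous gland list they were 5.63 and 5.72 against 5.40, 5.72 and 5.63, and overlapped between the groups. Those of the cornified envelope list were 4.28 and 4.31 against 4.14, 4.23 and 4.18, and those of the hair follicle list were 4.46 and 4.38 against 4.28, 4.30 and 4.30. The last 2 lists had all RG7112 tumours below both vehicle tumours, with differences of -0.11 and -0.13 between the group means. The sensory receptor probes did too, at 3.61 and 3.58 with vehicle against 3.53 in each RG7112 tumour, a difference of -0.06. Gene by gene, 5 of 30 (16.7%) and 3 of 19 (15.8%) lay lower in all RG7112 tumours. For all probes this was 14.0%, and for receptor probes 17.1%. The median members of the 2 lists differed by -0.13 and -0.12. Of their genes 24 of 30 and 16 of 19 were lower, against 55.2% of all probes and 64.2% of receptor probes. Cdsn, an adhesion protein of the cornified layer, was at 6.04 and 5.81 with vehicle and 5.14, 5.31 and 5.23 with RG7112. Lce1m of the same list went the other way, at 3.49 and 3.46 with vehicle and 4.03, 4.37 and 3.93 with RG7112. It differed by 0.64 ± 0.18 and was below the floor in all 5 tumours. In the hair follicle list Wnt10b, a signal of follicle growth, differed by -0.72 ± 0.19. A further list held 18 genes, most of which link to or resemble keratin filaments, such as vimentin (Vim), plakoglobin (Jup) and desmoplakin (Dsp). It also held the chaperone Hsp90aa1. Of the 18, 13 were above the floor in all 5 tumours and 0 were called in limma, where 0.0315% of all probes were called lower and 1.42% higher. At an unadjusted p under 0.05 in limma, 2 of the 18 were lower and 0 higher, against 4.06% and 4.83% of all probes. The 2 were Jup and Pkp1, which the keratinocyte adhesion list also holds and counts. The median difference of the 18 was -0.08, against -0.03 over all probes. Hsp90aa1, a cytosolic chaperone, differed by 0.18 ± 0.15. Vim was at 12.21 and 12.25 with vehicle and 12.07, 12.05 and 12.25 with RG7112.

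**Figure D4:**
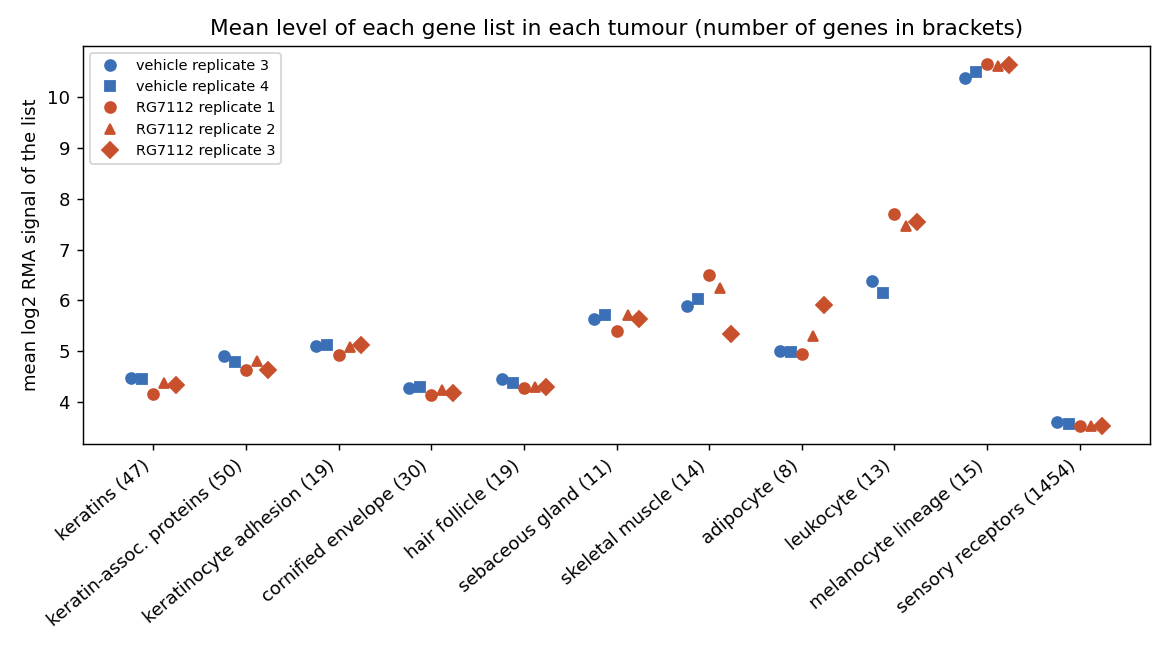
Mean log2 RMA signal (vertical axis) of each gene list in each tumour, with the number of measured genes in brackets on the horizontal axis, vehicle tumours in blue and RG7112 tumours in orange. The keratin, keratin-associated protein, keratinocyte adhesion, cornified envelope and hair follicle lists lie between 4.14 and 5.13, the sensory receptors between 3.53 and 3.61, and the melanocyte lineage list between 10.4 and 10.6.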

How the data were processed

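Values were the deposited log2 signals of 5 arrays, 1 per tumour and mouse. The authors made them with oligo and RMA, per the submitters' processing notes; no version or array batch is given in the sources used here. All 22203 probes were fitted with limma 3.58.1 in R 4.3.3 (RG7112 minus vehicle, lmFit and eBayes, Benjamini-Hochberg over all probes, called at adjusted p under 0.05). SEs are from this fit. The platform annotation named 19572 probes, and 2631 had no symbol; all 97 members matched the RefSeq table of GRCm38.p6, each through a single probe. No coordinates are given, since the values name no build.

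Members and lists were chosen with earlier results of these data known. Named genes were Krtap11-1 and its neighbours, fixed keratins, the 2 members with the highest mean in each class, the 5 largest rises and falls, and the 2 genes with the highest mean in each other list. Trp63, Col17a1, Dsg3, Ivl, Lce1m, Tchh, Foxn1, Awat1, Awat2, Wnt10b, Jup, Dsp, Aloxe3, Alox12b, Padi3, Gjb2, Cdh1, Perp, Pkp1, Adipoq, Plin1, Pck1, Krt36, Krt33a and Krt33b were named after their values were seen. Keratin-associated proteins were grouped by chromosome, as no protein sequences were used here. On simulated data for this comparison with 22203 probes, the fit recovered 62.8% of changes of 1 and 1.19% of changes of 0.5 on the log2 scale. The number of arrays limits precision: 2 against 3 tumours allow 10 splits, so an exact permutation p could not go below 0.1. Alternatives were other eBayes and array weight settings, 2 further normalizations, a filter on dim probes, other floors, a wider symbol rule and leaving out each tumour.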

Additional observations from a re-analysis of the deposited data

How the results depend on the processing

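Krtap11-1 kept a difference from -1.06 to -0.82 when each tumour was left out, and was called only without RG7112 replicate 3. Its difference was -0.88 with quantile normalization and with cyclic loess, and -0.89 with centring on the receptor probes. Members called lower numbered 0 without probes below the 40th percentile, which removed Krtap11-1, 2 at adjusted p under 0.10, and 0 to 1 with tumours left out; 0 were called higher in limma in any setting run, and at an unadjusted p under 0.05 on the deposited values 0 were. Over all probes, calls ran from 65 to 268 higher and 0 to 5 lower with tumours left out, and 16, 2, 4 and 29 were lower with array weights, without dim probes, with cyclic loess and at adjusted p under 0.10. The median member difference was -0.09 with quantile normalization (-0.0874), -0.07 with cyclic loess (-0.0735), -0.09 with receptor centring (-0.0926), and -0.25 for the 39 members above the floor in at least 2 tumours, of which 34 were lower. A member can pass this filter through the vehicle tumours alone or the RG7112 tumours alone, so the filter is not independent of the difference. The share of lower probes among all probes under the same filter was not computed, so these 39 members have no background to compare with. Members with all RG7112 tumours lower numbered 26 as deposited, 18 with quantile or cyclic loess normalization (13.8% and 11.5% of all probes) and 13 with receptor centring (8.38%). The 99th percentile as floor left 15 members in every tumour. Of 423 alternative values for the other named members, 406 moved by less than 1 SD of the replicates and 11, in 10 genes, changed sign; the cause was not tested. No paired analysis was run, as the labels name no pairs of tumours across the groups. Averaging the probes of a gene was not run, as each member had 1 probe, and groups by protein composition were not made.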

Other observations

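Markers of the tissues that lie beside skin varied between tumours more than the skin lists did. The 14 skeletal muscle genes had list means of 5.89 and 6.03 with vehicle and 6.50, 6.24 and 5.35 with RG7112, and 10 of them were above the noise floor in all 5 tumours. Myl1, a myosin light chain of fast muscle, was at 7.07 and 6.78 against 8.24, 6.996 and 5.87, so that RG7112 tumours 1 and 3 were the extremes, while the muscle creatine kinase Ckm differed by 0.06 ± 0.17. The 8 adipocyte genes had means of 5.01 and 4.98 with vehicle and 4.94, 5.30 and 5.91 with RG7112. Adipoq, the hormone adiponectin of fat cells, was at 3.89 and 3.62 with vehicle and 3.57, 5.03 and 5.95 with RG7112. Of the 8 genes, 6 were higher with RG7112 and 2 were lower, Plin1 by -0.27 ± 0.20 and Pck1 by -0.02 ± 0.18. Over all probes 55.2% were lower. Limma called 1 of the 8 genes higher and 0 lower, where 1.42% and 0.0315% of all probes were. The called adipocyte gene was Fabp4, a fatty acid carrier that macrophages also express, with a difference of 1.18 ± 0.19. The lipase Lipe differed by 0.20 ± 0.25. RG7112 tumour 3 thus had the lowest muscle list mean and the highest adipocyte list mean, while its keratin mean of 4.35 lay between those of the other RG7112 tumours. Myl1, Adipoq and Fabp4 stand here as values only.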
